A study of Mus musculus with 6 samples.

Results

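The genes described here encode 10 solute transporters of the kidney's proximal tubule, *Slc5a2*, *Slc5a12*, *Slc34a1*, *Slc34a3*, *Slc6a19*, *Slc7a13*, *Slc3a1*, *Slc7a9*, *Slc13a3* and *Slc9a3*. They were picked by symbol from the 55367 gene symbols listed in each of 6 RNA-seq libraries, and all 10 were found. Their expression was compared between WT mice, mice with autosomal dominant polycystic kidney disease (ADPKD) and ADPKD mice treated with MMPP. The largest differences lay between the treated libraries and the others. Against untreated ADPKD, *Slc7a13*, *Slc34a3* and *Slc3a1* rose most, but *Slc3a1* lost this place when genes of like annotation were the reference. *Slc5a12* and *Slc3a1* were the carriers that rose in ADPKD against WT.

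The proximal tubule is the first segment after the glomerulus, and it recovers most of the filtered glucose, amino acids, phosphate, organic acids and bicarbonate. Carriers in the apical brush border draw these solutes in from the urine, mostly with sodium, and basolateral carriers pass them on toward the blood. The set is named for the apical membrane, but the product of *Slc13a3*, the dicarboxylate carrier NaDC3, is known from the basolateral side, so the genes are called proximal tubule carriers below. *Slc3a1* encodes rBAT, a subunit that does not itself form the pore but brings the cystine carrier encoded by *Slc7a9* and the AGT1 carrier encoded by *Slc7a13* to the membrane.

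RNA came from kidney cells collected at Day115, with 2 libraries per group. The WT mice received saline. ADPKD mice received saline and were Pkd1-/-, made in *Pkd1* fl/fl;Cre/Esr1+ male mice by tamoxifen, which activates the Cre recombinase. The ADPKD+MMPP mice had the same genotype and received repeated intravenous injections of MMPP, a melanin-like nanoparticle carrying chelated manganese and polyethylene glycol. The methods describe tamoxifen for the male mice without saying whether the WT mice carried Cre. Cells were enriched with DBA, a lectin that binds collecting duct epithelium, which is not the segment these carriers mark. The labels also mention whole kidney as the source of the RNA that went into oligo dT selection. Nothing states that the 2 libraries of a group came from separate mice, so the p-values measure the spread between these libraries, which may be technical.

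*Pkd1* itself had 17.7 and 17.2 FPKM (fragments per kilobase of exon, scaled to library size) in WT, 7.64 and 8.91 in ADPKD and 4.34 and 3.99 in ADPKD+MMPP. FPKM values fell on steps of whole reads, which gave depths of 30.6 to 33.1 M reads in the WT and ADPKD libraries and of 11.8 and 10.9 M reads in the ADPKD+MMPP libraries. Odd read numbers made up 37.6% to 39.1% of the whole values in the WT and ADPKD libraries, but 8.89% and 8.38% in the treated ones. For the carriers, 19 of 20 read numbers were even in ADPKD+MMPP, against 13 of 20 in WT and 8 of the 19 above 0 in ADPKD. These read numbers split the libraries exactly as the treatment does, and whatever made them cannot be told apart from it. The gene *Aqp2*, the water channel of principal cells, had 677 to 3555 FPKM in the 6 libraries, and of the 11 principal cell markers examined only *Avpr2* was at 0 in any library, the second ADPKD library.

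In WT, *Slc34a1* was the leading carrier with 45.2 ± 31.5 FPKM (mean ± SD, n = 2). *Slc5a2*, at 6.48 ± 3.46, and *Slc9a3*, at 5.64 ± 2.86, followed, and the libraries of these 2 genes overlapped. The other carriers had means of 0.777 to 2.08 FPKM, and each of them overlapped its neighbour among them. In ADPKD the order began with *Slc34a1* at 24.7 ± 28.6 and *Slc3a1* at 14.4 ± 10.4, and every pair of neighbours overlapped except *Slc6a19* over *Slc13a3*. In ADPKD+MMPP the order was different, with *Slc7a13* first at 160 ± 1.27, then *Slc3a1* at 133 ± 0.923 and *Slc34a1* at 57.5 ± 0.429. There only *Slc34a3* and *Slc5a2*, at 27.0 and 26.9 FPKM, overlapped as neighbours. Depth did not limit most of these values, since the carriers had 40 to 9644 reads per library outside 3 low values, which were 18 and 2 reads of *Slc7a13* in the second WT and second ADPKD library, and, of *Slc34a3*, 0 reads in the second ADPKD library. At this depth a count of 0 allows up to 3 reads, counting error only.

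**Figure D1:**
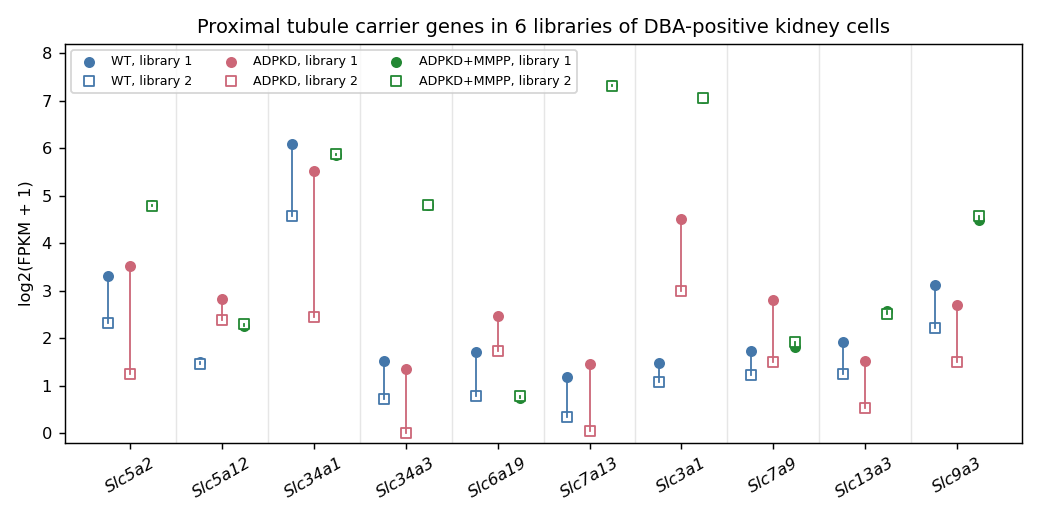
Level of each of the 10 carrier genes as log2(FPKM + 1) (vertical axis) in the 6 libraries, by gene (horizontal axis) and group (colour). Filled circles are the first library of a group, open squares the second, and the line joins them. The libraries of ADPKD+MMPP lie on top of each other for every gene, while the first WT and ADPKD libraries lie above the second ones for all 10 genes.

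The 2 libraries of WT and of ADPKD differed from each other in the same direction over the whole set. The first library was higher for 10 of 10 carriers in WT, by a median of 2.16 times and a range of 1.05 times (*Slc5a12*) to 4.73 times (*Slc7a13*). It was higher for 10 of 10 in ADPKD too, by a median of 3.25 times over the 9 genes with reads in both, up to 60.1 times for *Slc7a13*. In ADPKD+MMPP, 5 carriers were higher and 5 lower in the first library, with ratios of 0.902 to 1.04. Over the 10 genes, the read numbers of the 2 treated libraries differed by no more than sampling noise (chi-square of 4.14 on 9 degrees of freedom), whereas those of WT (202) and ADPKD (1286) differed by far more. Over 13746 tested genes the treated libraries differed beyond sampling noise, with a chi-square of 58341 on 13745 degrees of freedom. With reads counted as pairs it was 29171, or 2.12 per degree of freedom, against 14.4 in WT and 55.7 in ADPKD. This value also depends on depth, which was lower in the treated libraries. It cannot tell separate mice from repeated libraries of 1 sample. The treated libraries were kept as 2 samples, as labelled, and calls that are lost when they count as 1 sample are named beside the results.

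Other markers differed between the same libraries. Of the 18 proximal tubule markers that are not carriers, 14 were higher in the first WT library and 17 in the first ADPKD library, with sums 1.23 and 1.38 times those of the second. Principal cell markers summed to 0.751 times the second library in WT, and to 2.59 times in ADPKD. The summed FPKM of the 10 carriers was 98.2 and 37.8 in WT, 104 and 23.5 in ADPKD, and 439 and 437 in ADPKD+MMPP. In bulk RNA, fewer cells of a type and less RNA per cell cannot be told apart.

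The make-up of the set changed with the group. *Slc34a1* supplied 68.7% and 60.7% of the carriers' summed FPKM in WT, 43.0% and 18.9% in ADPKD, and 13.0% and 13.2% in ADPKD+MMPP. *Slc3a1* supplied 1.80% and 2.97% in WT, 20.9% and 29.9% in ADPKD, and 30.4% and 30.2% in ADPKD+MMPP. *Slc7a13* stayed below 1.68% in each WT and ADPKD library and supplied 36.6% and 36.3% in the treated ones. These shares set genes of unlike annotation side by side, a feature given below that moved with the treated libraries. Its part in the shares was not tested.

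**Figure D2:**
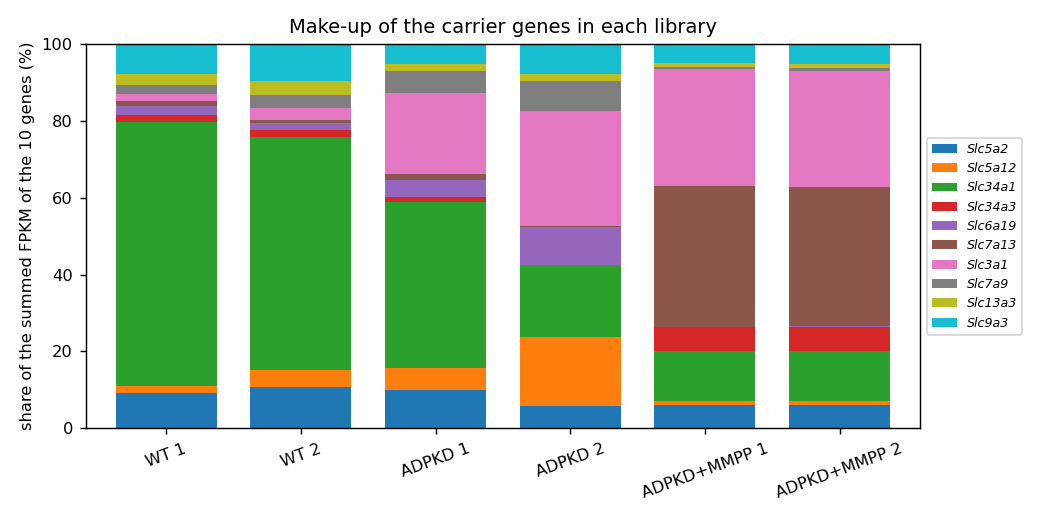
Share of the summed FPKM of the 10 carrier genes (vertical axis, percent) taken by each gene in each of the 6 libraries (horizontal axis). *Slc34a1* takes 60.7% to 68.7% in WT, and *Slc7a13* and *Slc3a1* together take 66.5% and 67.0% in ADPKD+MMPP. The shares are not adjusted for differences in annotation between the genes.

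Calls needed a fold of 1.5 or more and an unadjusted P under 0.05 in limma, the thresholds of the study, and p was adjusted by Benjamini-Hochberg over 14862 tested genes. Fold changes are differences of mean log2(FPKM + 1), which understate the change of low genes. In ADPKD against WT, 2 of 10 carriers were called higher and 0 lower, where 14.2% of all tested genes were called higher and 12.5% lower. The carriers had a median log2 fold change of -0.23, against 0.03 over all tested genes. For 3 carriers the WT and ADPKD libraries did not overlap, all higher in ADPKD, against 35.5% higher and 31.5% lower among all tested genes.

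*Slc5a12*, which encodes the sodium-coupled lactate carrier SMCT2 (GRCm38 chr2:110597298-110647779, plus strand), had 1.82 and 1.73 FPKM in WT and 6.05 and 4.20 in ADPKD. Both ADPKD libraries lay above both WT libraries, and the gene rose by a log2 fold change of 1.13 (SE 0.17, adjusted p = 0.0088). It had 3.75 and 3.93 FPKM in ADPKD+MMPP, below ADPKD by a log2 of -0.32 that was not called (adjusted p = 0.131) and above WT by 0.80 (adjusted p = 0.00605). *Slc5a12* was the carrier whose replicates lay closest in WT and ADPKD.

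*Slc3a1* (chr17:85028376-85064236, plus strand) had 1.77 and 1.12 FPKM in WT, 21.8 and 7.02 in ADPKD, and 133 and 132 in ADPKD+MMPP. The 3 groups did not overlap. It rose by a log2 of 2.48 in ADPKD against WT (SE 0.47, adjusted p = 0.0164) and by 3.31 in ADPKD+MMPP against ADPKD (adjusted p = 0.00127). Of its 2271 exon bases, 26.5% also lie in exons of *Prepl* on the opposite strand, and whether the counting used strand is not stated. *Prepl* had 3.30 to 6.64 FPKM in the 6 libraries, and its own part in the reads of *Slc3a1* was not tested.

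The other 8 carriers were not called in ADPKD against WT, and their values hung on which ADPKD library was used. *Slc34a1*, the main phosphate carrier NaPi-2a of the brush border (chr13:55398187-55415592, plus strand), had 67.5 and 22.9 FPKM in WT and 44.9 and 4.44 in ADPKD, a log2 of -1.36 (SE 1.02, adjusted p = 0.366). *Slc5a2*, the glucose carrier SGLT2 (chr7:128265657-128272430, plus strand), had 8.93 and 4.04 in WT and 10.5 and 1.37 in ADPKD. *Slc9a3*, the sodium-proton exchanger NHE3, which is also known from the thick limb (chr13:74121457-74169442, plus strand), had 7.67 and 3.62 in WT and 5.55 and 1.83 in ADPKD. The second ADPKD library was the lowest of the 4 for each of these 3 genes, and the groups overlapped.

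*Slc6a19* encodes the neutral amino acid carrier B0AT1 (chr13:73679745-73704865, minus strand) and had 2.29 and 0.723 FPKM in WT and 4.52 and 2.32 in ADPKD. Its ADPKD libraries lay just above the WT libraries, with a log2 of 0.85 (SE 0.37, adjusted p = 0.146). When values were centred on genes of like annotation in each library, it was called higher (0.86, adjusted p = 0.0986). *Slc7a9*, the light chain b0,+AT that takes up cystine with rBAT (chr7:35448796-35466036, plus strand), had 2.32 and 1.35 in WT and 5.98 and 1.84 in ADPKD, which overlapped. *Slc13a3* (chr2:165405028-165473230, minus strand) had 2.80 and 1.36 in WT and 1.88 and 0.449 in ADPKD, which overlapped as well.

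*Slc34a3*, the second phosphate carrier NaPi-2c (chr2:25228898-25234364, minus strand), had 1.86 and 0.644 FPKM in WT and 1.54 and 0 in ADPKD. *Slc7a13* (chr4:19818725-19842218, plus strand), which pairs with rBAT in the last part of the proximal tubule, had 1.28 and 0.272 in WT and 1.75 and 0.0291 in ADPKD. Neither set of libraries separated the groups. Without the first ADPKD library, the median log2 of the set against WT was -0.89, against 0.0077 over all tested genes. The carriers then ran from -2.90 (*Slc34a1*) to 1.72 (*Slc3a1*). Without the second ADPKD library, the median was 0.69, against 0.045 over all tested genes. The carriers then ran from -0.054 (*Slc13a3*) to 3.23 (*Slc3a1*). Without the first WT library *Slc6a19* had a log2 of 1.31. The calls of *Slc5a12* and *Slc3a1* held in each of these fits.

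In ADPKD+MMPP against ADPKD, 6 of 10 carriers were called higher and 1 lower, where 27.9% of all tested genes were called higher and 43% lower. The carriers had a median log2 of 2.16, against -0.36 over all tested genes. The libraries did not overlap for 7 carriers that were higher and 2 that were lower, against 36.1% and 51.7% of all tested genes. Without the first ADPKD library the median was 3.23, and without the second it was 1.15.

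*Slc7a13* had 161 and 159 FPKM in the treated libraries, from 4058 and 3708 reads, against at most 1.75 in any other library. It rose by a log2 of 6.58 (SE 0.50, adjusted p = 0.000118), the largest change in the set, and by 8.35 with a pseudocount of 0.1 in place of 1. *Slc34a3* had 27.2 and 26.8 FPKM after treatment, far above its ADPKD libraries of 1.54 and 0, and rose by 4.13 (SE 0.48, adjusted p = 0.000526), or by 6.06 with the lower pseudocount. *Slc9a3* had 21.6 and 22.9 FPKM after treatment, above the other 4 libraries, and rose by 2.43 (SE 0.46, adjusted p = 0.00402). *Slc13a3* had 4.94 and 4.75, also above the other 4, and rose by 1.51 (SE 0.37, adjusted p = 0.0116).

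*Slc5a2* had 27.1 and 26.6 FPKM after treatment, above the other 4 libraries, and rose by a log2 of 2.42 (SE 0.74, adjusted p = 0.0261). This call was lost without either treated library (adjusted p of 0.0995 without the first and 0.0977 without the second) and when they counted as 1 sample (0.0986). Of its exon bases, 20.6% lie opposite exons of *BC017158*, which had 2.03 to 3.20 FPKM in the 6 libraries. *Slc34a1* had 57.2 and 57.8 FPKM after treatment, above both ADPKD libraries but within the WT range, and its log2 of 1.89 was not called (SE 1.02, adjusted p = 0.140). Without the first ADPKD library it was called higher, with a log2 of 3.43 (adjusted p = 0.00707). Of its exon bases, 11.7% lie opposite *Pfn3*, which was listed at 0 in all libraries.

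*Slc6a19* was the carrier called lower, with 0.677 and 0.732 FPKM after treatment, from 40 reads in each library, against 4.52 and 2.32 in ADPKD. It fell by 1.33 on the log2 scale (SE 0.37, adjusted p = 0.018). The call was lost without the first ADPKD library (log2 of -0.96, adjusted p = 0.0829), without the first treated library (-1.31, 0.0802), without the second (-1.35, 0.0736), with the treated libraries as 1 sample (adjusted p = 0.0768) and under quantile normalization (-0.69, 0.124). *Slc7a9* had 2.53 and 2.81 FPKM after treatment, between the ADPKD libraries, and its log2 of -0.28 was not called (adjusted p = 0.570). It became 0.37 without the first ADPKD library, and -0.93 and called lower without the second (adjusted p = 0.0198).

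In ADPKD+MMPP against WT, 7 carriers were called higher and 0 lower, where 30.1% of all tested genes were called higher and 43.8% lower, and the median log2 of the carriers was 1.42 against -0.36. The libraries did not overlap for 8 carriers, all higher, against 38.9% higher and 53% lower among all tested genes. *Slc7a13* rose by 6.56, *Slc3a1* by 5.79, *Slc34a3* by 3.69 and *Slc9a3* by 1.88, with adjusted p of 0.000101 to 0.0109. *Slc5a2* rose by 1.98 (adjusted p = 0.0496) and *Slc13a3* by 0.96 (adjusted p = 0.0553). Both calls were lost without the second WT library (log2 of 1.49 and 0.62) and without either treated library, and *Slc5a2* also without the first WT library (2.47, adjusted p = 0.0746). They were also lost with a common sum of FPKM (1.62 and 0.67), a pseudocount of 0.1, no filter or the treated libraries as 1 sample, and a common sum ended the call of *Slc5a12* (0.51). *Slc34a1*, *Slc7a9* and *Slc6a19* had log2 values of 0.53, 0.39 and -0.48 and were not called, but without the second WT library *Slc6a19* was called lower (-0.95, adjusted p = 0.0607).

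**Figure D3:**
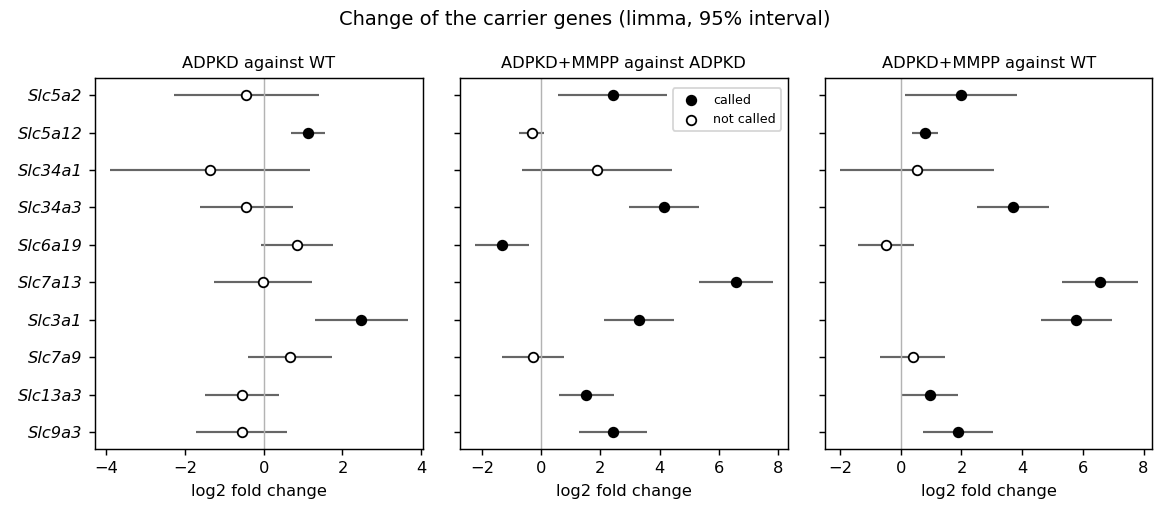
Log2 fold change (horizontal axis) of each carrier gene (vertical axis) in the 3 comparisons, with its 95% interval from limma over 6 libraries. Filled points passed a fold of 1.5 and P under 0.05. The intervals of *Slc34a1* span 0 in each panel, and that of *Slc7a13* spans 0 in ADPKD against WT and lies above 5 in the other panels.

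Ratios within pairs of carriers were compared between the groups. After treatment, each ratio taken lay outside the range of the WT and ADPKD libraries. The ratio of *Slc3a1* to its cystine partner *Slc7a9* was 0.763 and 0.831 in WT, 3.64 and 3.81 in ADPKD, and 52.7 and 47.0 in ADPKD+MMPP. The 3 groups did not overlap, and replicates lay close although each gene alone varied by 1.58 to 3.25 times between the WT or ADPKD libraries. The genes differ in annotation, with 100% of the exon bases of *Slc3a1* and 31.1% of those of *Slc7a9* in exactly 1 transcript. In ADPKD+MMPP against ADPKD their log2 changes were 3.31 and -0.28, but 2.18 and 1.11, thus closer together, after centring on genes with a like share. In ADPKD against WT they were 2.48 and 0.67, and 2.34 and 0.66 when centred. The ratio of *Slc3a1* to its other partner *Slc7a13* was 1.38 and 4.14 in WT, 12.4 and 240.9 in ADPKD, and 0.831 and 0.832 after treatment. It was highest in ADPKD, where the second value rests on 2 reads of *Slc7a13*, and lowest after treatment.

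Of the phosphate carriers, *Slc34a1* had 36.3 and 35.6 times the FPKM of *Slc34a3* in WT, 29.2 times in the first ADPKD library, and 2.11 and 2.16 times in ADPKD+MMPP. The second ADPKD library gave no ratio, since *Slc34a3* had no read there. Their log2 changes against ADPKD were 1.89 and 4.13, and 3.08 and 4.65 when centred in the same way. *Slc5a2*, known from the early proximal tubule, had 4.91 and 2.33 times the FPKM of *Slc5a12* in WT, 1.73 and 0.325 times in ADPKD, and 7.23 and 6.78 times after treatment. These ratios compare 2 genes within a library, so a common scaling of the library leaves them unchanged, but a difference in annotation between the genes does not. They were not tested.

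Promoters were searched for 2 short motifs, the HNF4 motif CAAAGTCCA and the full cAMP response element TGACGTCA, on both strands. HNF4 factors are known regulators of proximal tubule genes, and CREB, which binds the cAMP response element, is the factor the study examined. RefSeq windows of 250 bases before the transcript start (GRCm38.p6) were at hand for 7 of the 10 carriers, in 8 windows. CAAAGTCCA was found for 1 of the 7, *Slc3a1*, with its first base 39 bases before the start, and 0.3835% of all 32851 windows hold it. TGACGTCA was found for 0 of the 7, and in 1.546% of windows. A match is a description of letters, not of a bound site. The 3 sequences shown are those of *Slc3a1*, called in all comparisons, and of *Slc34a1* and *Slc34a3*, whose ratio was lower after treatment. They run 5′ to 3′ in the direction of the gene, end just before the RefSeq start and carry the motif found in *Slc3a1* in capitals. They lie at chr17:85028097-85028346 (plus strand), chr13:55399398-55399647 (plus strand) and chr2:25234235-25234484 (minus strand). The gene spans given above are those of GENCODE vM21, whose starts differ. The RefSeq start of *Slc34a1* lies 1461 bases inside the GENCODE gene, that of *Slc34a3* 130 bases inside and that of *Slc3a1* 29 bases before it. A stretch just after the RefSeq start was found in the gene's own GENCODE transcripts for *Slc34a3*, but not for *Slc3a1* or *Slc34a1*.
Slc3a1: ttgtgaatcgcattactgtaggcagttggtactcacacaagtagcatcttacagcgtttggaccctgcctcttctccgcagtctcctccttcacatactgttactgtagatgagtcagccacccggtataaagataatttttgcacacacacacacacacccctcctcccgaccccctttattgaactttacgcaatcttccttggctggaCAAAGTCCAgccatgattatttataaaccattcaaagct
Slc34a1: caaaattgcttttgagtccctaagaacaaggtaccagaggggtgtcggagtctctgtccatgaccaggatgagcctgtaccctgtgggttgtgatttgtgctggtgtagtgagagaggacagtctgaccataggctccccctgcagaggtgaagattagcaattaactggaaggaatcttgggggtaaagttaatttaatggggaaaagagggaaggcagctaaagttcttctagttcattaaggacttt
Slc34a3: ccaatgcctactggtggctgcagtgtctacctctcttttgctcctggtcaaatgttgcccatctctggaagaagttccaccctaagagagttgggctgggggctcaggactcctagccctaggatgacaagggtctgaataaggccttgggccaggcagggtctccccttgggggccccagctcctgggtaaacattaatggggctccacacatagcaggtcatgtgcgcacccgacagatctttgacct

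Genes also differed in a feature of their annotation that moved with the treated libraries. In GENCODE vM21, the only transcript of *Slc7a13* and of *Slc3a1* holds 100% of the exon bases, so every base lies in exactly 1 transcript. That share was 55.1% for *Slc34a3*, 48.4% for *Slc9a3*, 40.0% for *Slc13a3*, 36.1% for *Slc34a1*, 31.1% for *Slc7a9*, 24.4% for *Slc5a2*, 21.1% for *Slc6a19* and 13.5% for *Slc5a12*. Over the 10 carriers, the log2 change in ADPKD+MMPP against ADPKD ranked with this share (Spearman's rho of 0.88, n = 10 genes from the same libraries), and over 12375 protein-coding genes rho was 0.65. In ADPKD against WT rho was -0.16 and 0.05.

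Set against genes of like annotation, the carriers lay higher after treatment. Tested protein-coding genes with a share of 10% to 15% had a median log2 of -1.62 in ADPKD+MMPP against ADPKD, and those of 95% to 100% had 1.09. *Slc7a13* and *Slc3a1* exceeded the latter with 6.58 and 3.31. *Slc6a19*, at -1.33, lay at the median of its own bin, -1.34. When each library was centred within such bins, 9 carriers were called higher and 0 lower against ADPKD, with a median of 2.90. Of the 12375 protein-coding genes in that fit, 4227 were called higher and 3003 lower, with a median of 0.16. *Slc5a12* (1.58), *Slc7a9* (1.11) and *Slc34a1* (3.08) were then called higher, and *Slc6a19*, with 0.29, was not called (adjusted p = 0.475). The largest centred values were 5.45 for *Slc7a13*, 4.65 for *Slc34a3* and 4.04 for *Slc5a2*. *Slc3a1*, with 2.18, lay below *Slc9a3* (3.26), *Slc34a1* and *Slc13a3* (2.71) as well. Against WT, 9 carriers were called higher, including *Slc6a19* (1.15) and *Slc7a9* (1.77). Of the 12375 genes, 4448 were called higher and 3318 lower there, with a median of 0.17. The part of annotation in the carriers' changes was not tested beyond this.

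**Figure D4:**
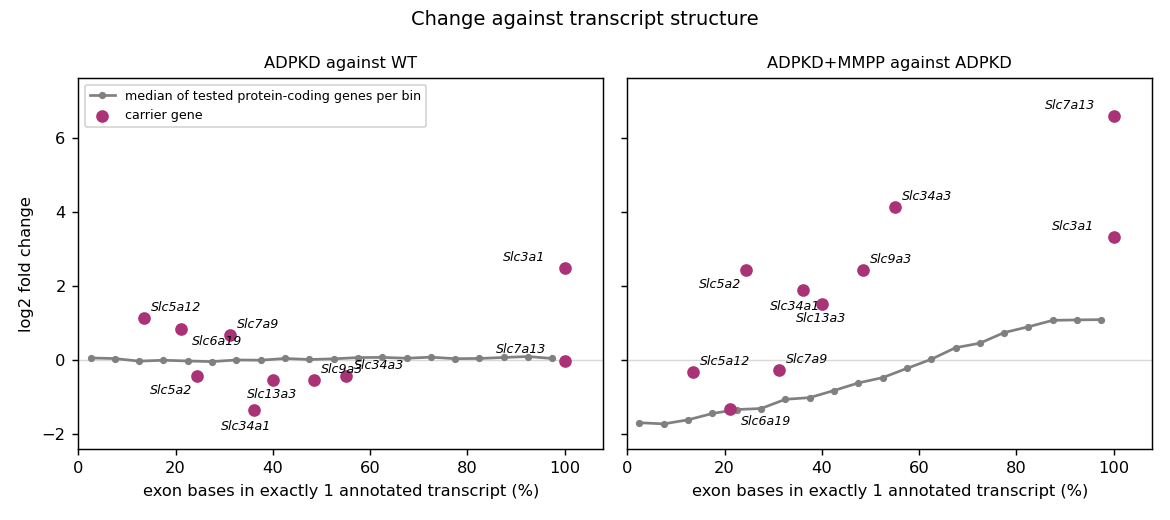
Log2 fold change (vertical axis) of the carrier genes (points) against the percentage of exon bases found in a single annotated transcript (horizontal axis, percent), with the median of tested protein-coding genes in 20 bins (grey line). The line is flat in ADPKD against WT and climbs from below -1 to 1.09 in ADPKD+MMPP against ADPKD, where *Slc6a19* lies on it and the other 9 carriers lie above it.

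Genes that work with the carriers were read from a list, of which 6 are given here. In ADPKD+MMPP against ADPKD, 2 were called higher and 4 lower, with a median log2 of -2.77. Of all tested genes, 27.9% were called higher there and 43% lower. *Slc9a3r1*, the scaffold NHERF1 that holds NaPi-2a and NHE3 at the brush border, had 86.9 and 52.7 FPKM in ADPKD and 279 and 309 after treatment, and rose by 2.1 (adjusted p = 0.00053). *Ezr*, which ties such scaffolds to actin, rose by 0.61, but had -0.33 and was not called when centred by annotation.

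The 4 that fell were the scaffolds *Pdzk1* and *Slc9a3r2*, and *Pdzk1ip1* and *Cltrn*, known as partners of SGLT2 and B0AT1. *Pdzk1ip1* had 172 and 72.6 FPKM in ADPKD and 6.10 and 7.01 after treatment, and fell by 3.91 on the log2 scale (adjusted p = 0.000297). *Cltrn* had 48.7 and 13.3 FPKM in ADPKD and 0.658 and 0.356 after treatment, and fell by 4.15 (adjusted p = 0.000949). Centred by annotation, *Pdzk1ip1* (-2.71), *Cltrn* (-2.27) and *Slc9a3r2* (-1.66) were still called lower and *Pdzk1* (-0.38) was not. The share of exon bases in 1 transcript was 15.5% to 35.7% for these 4 and 84.3% and 100% for the 2 that rose. In ADPKD against WT only *Ezr* (1.01) was called higher and *Slc9a3r2* (-2.36) lower.

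The transcription factor *Hnf4a*, known to drive genes of the proximal tubule, had 2.36 and 2.32 FPKM in WT, 7.28 and 5.37 in ADPKD, and 0.0351 and 0 in ADPKD+MMPP. It rose in ADPKD against WT (log2 of 1.12, adjusted p = 0.00719), with no overlap between the libraries. After treatment *Hnf4a* was called lower against ADPKD (log2 of -2.84, adjusted p = 4.61e-05) and against WT (-1.72). Its share of bases in 1 transcript was low, 9.78%. Centred by annotation, it was still called lower against ADPKD (-0.71, adjusted p = 0.00415), but not against WT (0.33). *Hnf4g* was under the filter.

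Other carriers of the same segment also differed between the groups. Of 19 other apical carriers tested, 9 were called higher and 0 lower in ADPKD against WT, and 12 rose and 3 fell after treatment against ADPKD. Over all tested genes, 14.2% were called higher and 12.5% lower in the former comparison, and 27.9% and 43% in the latter. The 3 with the highest mean were the urate carrier *Slc22a12*, which had 12.2 and 1.05 FPKM in ADPKD and 102 and 103 after treatment, and the organic cation and carnitine carriers *Slc22a5* and *Slc22a4*. *Slc22a12* (4.32) and *Slc22a5* (1.51) rose against ADPKD, and *Slc22a4* rose against WT in ADPKD (2.29). Centred by annotation, 11 of the 19 were called higher and 0 lower against ADPKD.

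Of 14 basolateral carriers, 4 were called higher and 1 lower in ADPKD against WT, and 9 higher and 3 lower after treatment, or 12 and 1 when centred by annotation. *Slc22a6*, the organic anion carrier OAT1, had 4.27 and 0.251 FPKM in ADPKD and 147 and 150 after treatment, and rose by 5.87 (adjusted p = 0.000584). *Slc7a8*, a light chain for neutral amino acids, rose by 1.23, but had 0.56 and was not called when centred by annotation. *Slc3a2*, the heavy chain 4F2hc that serves the basolateral side as rBAT serves the apical side, fell by 1.82 on the log2 scale (adjusted p = 6.59e-05). Centred by annotation, *Slc22a6* (4.74) was still called higher and *Slc3a2* (-0.99) lower.

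The rise of the carriers after treatment went with that of other proximal tubule markers. Of the 18 markers that are not carriers, 17 were called higher and 0 lower after treatment against ADPKD, with a median log2 of 3.22. Their summed FPKM was 1003 and 817 in WT, 2235 and 1615 in ADPKD, and 25269 and 24127 in ADPKD+MMPP, and none was at 0 in any library. *Kap*, an abundant transcript of the male proximal tubule, reached 12822 and 12116 FPKM, and *Lrp2*, the endocytic receptor megalin, had 68.7 in both treated libraries against 9.80 and 4.86 in ADPKD.

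Collecting duct principal cell markers summed to 2120 and 2821 in WT, 2536 and 980 in ADPKD, and 5552 and 5574 in ADPKD+MMPP, with 5 of 10 tested called higher and 3 lower after treatment. Intercalated cell markers summed to 378 and 405 in WT, 222 and 64.9 in ADPKD, and 597 and 627 after treatment. Of these 7 markers, 6 were called lower in ADPKD against WT, 7 higher after treatment against ADPKD, and 1 higher and 0 lower after treatment against WT, with a median log2 of -0.14. Of 7 thick limb and distal tubule markers, 2 were called higher and 2 lower after treatment, and their sums were 1304 and 520 in WT, 639 and 209 in ADPKD and 204 and 203 after treatment. Of cells outside the tubule, 3 of 5 endothelial and 3 of 5 podocyte markers were called lower and 0 higher. Leukocyte markers had 4 of 5 tested lower and 1 higher, and fibroblast and pericyte markers 3 of 5 lower and 2 higher. The shares over all tested genes were 27.9% higher and 43% lower after treatment against ADPKD. They were 14.2% and 12.5% in ADPKD against WT, and 30.1% and 43.8% after treatment against WT.

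Centring by annotation changed several of these counts in ADPKD+MMPP against ADPKD, where 4227 of 12375 protein-coding genes were then called higher and 3003 lower. Thick limb and distal tubule markers then had 5 called higher and 0 lower, with a median log2 of 1.89 in place of -0.01. Principal cell markers had 2 higher and 1 lower, leukocyte markers 2 higher and 2 lower, and fibroblast and pericyte markers 1 higher and 3 lower. Lower calls numbered 5 of 5 for endothelial and 4 of 5 for podocyte markers. Intercalated cell markers still had 7 of 7 higher, and against WT 0 higher and 4 lower. Against WT, 4448 of the 12375 genes were called higher and 3318 lower. Of the 18 other proximal tubule markers, 18 were called higher. The part of cell make-up in the carriers' changes was not tested.

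Tubular injury markers were called higher in ADPKD against WT for 7 of 7 genes, with sums of 465 and 521 in WT, 6230 and 5614 in ADPKD and 3752 and 3903 in ADPKD+MMPP. After treatment, 1 of the 7 was called higher and 2 lower against ADPKD. Of the carriers, 8 of 10 were not called in ADPKD against WT. Of all tested genes, 14.2% were called higher there and 12.5% lower, so most were not called either.

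**Figure D5:**
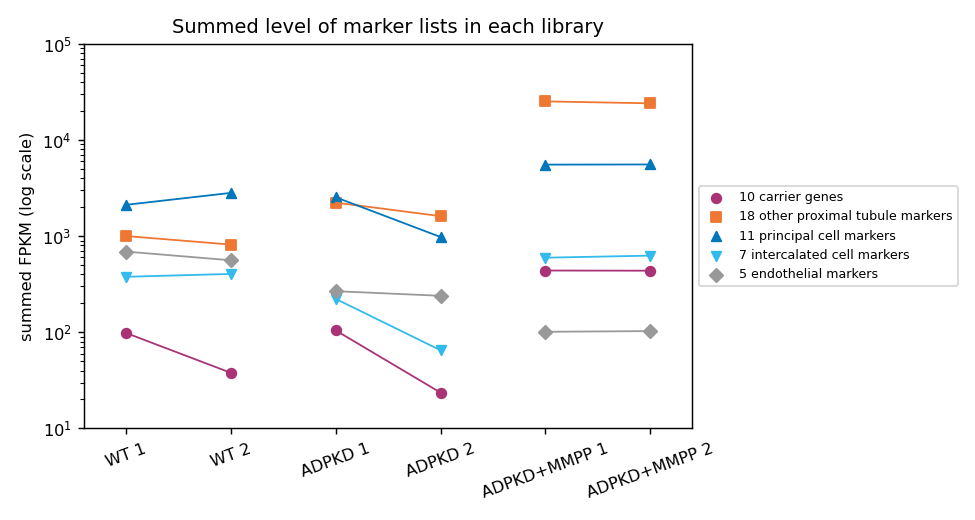
Summed FPKM (vertical axis, log scale) of the 10 carrier genes and of 4 marker lists in each library (horizontal axis), with a line joining the 2 libraries of a group. The carriers lie between 23.5 and 104 in WT and ADPKD and at 439 and 437 in ADPKD+MMPP, and the other proximal tubule markers reach 25269 there.

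The 5 tested genes outside the set whose centred log2(FPKM + 1) values lay nearest to the median profile of the carriers over the 6 libraries were *Oas1a*, *Gstt1*, *Lhx1os*, *Rec8* and *Agxt2*, at Euclidean distances of 0.60 to 0.65. *Agxt2*, a mitochondrial aminotransferase, had 1.5 and 0.357 FPKM in WT, 2.41 and 0.384 in ADPKD and 6.82 and 6.89 in ADPKD+MMPP. *Gstt1*, a glutathione transferase, had 63.8 and 64.7 FPKM in WT, 89.5 and 33.2 in ADPKD and 160 and 166 in ADPKD+MMPP. All 5 were higher in the first than in the second ADPKD library and highest after treatment, which follows from their choice by nearness to this profile.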

How the data were processed

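RNA-seq reads of the 6 libraries were aligned by the authors to the mouse genome (GRCm38/mm10) with HISAT2 v2.1.0 and counted with featureCounts v1.6.0, per the methods and labels. The authors deposited FPKM, and how it was computed, the annotation release and the use of strand are not given in the sources used here. Values were matched to GENCODE vM21 for 53186 of 55367 symbols, and FPKM times exon length gave read numbers and depth. Read numbers within 0.05 of a whole number counted as whole. DESeq2, the authors' test, needs counts and was not used.

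Genes with at least 1 FPKM in at least 2 libraries (14862) entered limma 3.58.1 (R 4.3.3) as log2(FPKM + 1), two-sided, in one fit over the 3 groups. All 10 carriers passed this filter, also without the treated libraries. The step was tested on simulated data before use. The genes named are the carriers, their partners and factors, the 3 most abundant of each list of other carriers, the 5 nearest profiles and *Pkd1*, of which some are not reported here. *Kap*, *Lrp2*, *Aqp2* and *Avpr2* were named after their values were seen. The carriers and lists were chosen with earlier results of these data known. Alternatives covered scaling, pseudocount, filter, thresholds, trend, groups in the fit, a replicate block, each replicate left out and centring within 20 bins of annotation. Counting the treated libraries as 1 sample was chosen after seeing the data. With 2 against 2 libraries an exact permutation test cannot go below p = 0.333, so none was run.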

Additional observations from a re-analysis of the deposited data

How the results depend on the processing

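Of 438 values of single carriers under the alternatives, 381 kept their direction and their side of the threshold, 24 lost the call, 16 gained one and 17 changed sign. Changes of filter, trend, groups in the fit, replicate block and treated libraries as 1 sample leave the log2 value as it was by construction. Only the call could change there. In ADPKD against WT, the treated libraries as 1 sample also repeat the fit of only the 2 groups compared. In ADPKD+MMPP against ADPKD, the higher calls of *Slc7a13*, *Slc3a1*, *Slc34a3*, *Slc9a3* and *Slc13a3* held in each alternative in which the gene was tested. These calls rest on the unadjusted P of limma, and with no filter the adjusted p of *Slc13a3* was 0.0513. The 2 libraries per group limit the precision of each mean, and the treated libraries had 11.8 and 10.9 M reads.

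A filter of 5 FPKM kept 6 carriers, by its construction fewer, with 1 called higher in ADPKD against WT, 0 lower in ADPKD+MMPP against ADPKD, and medians of 2.87 against ADPKD and 2.83 against WT. Quantile normalization turned *Slc7a13* in ADPKD against WT to 0.0075, *Slc5a12* and *Slc7a9* in ADPKD+MMPP against ADPKD to 0.26 and 0.35, and *Slc6a19* against WT to 0.13, and left 0 called lower against ADPKD. The median over all tested genes in ADPKD+MMPP against ADPKD was -0.36, and 0.10 under this scaling. A common sum of FPKM left 4 called higher in ADPKD+MMPP against WT. Centring by annotation also called *Slc6a19* higher in ADPKD against WT (0.86), 3 carriers in all, and gave medians of 2.90 and 2.71 in the treated comparisons, 0 called lower, and turned *Slc5a12* to 1.58, *Slc6a19* to 0.29 and *Slc7a9* to 1.11 against ADPKD and *Slc6a19* to 1.15 against WT. With the treated libraries as 1 sample, 0 were called lower against ADPKD. The cause was not tested for any of these.

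Leaving out 1 library moved the median in ADPKD against WT between -0.89 and 0.69, against 0.0077 to 0.045 over all tested genes. In ADPKD+MMPP against ADPKD the median ranged from 1.15 to 3.23, and against WT from 1.10 to 1.82. In ADPKD against WT the ranges were -1.58 to 0.70 for *Slc5a2*, -2.90 to 0.18 for *Slc34a1*, -1.12 to 0.23 for *Slc34a3*, -0.73 to 0.69 for *Slc7a13* and -1.16 to 0.049 for *Slc9a3*. They were -0.93 to 0.37 for *Slc7a9* against ADPKD and -0.23 to 1.29 for *Slc34a1* in ADPKD+MMPP against WT. With 1 library left in a group, it is assumed to vary like the other groups.

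Over all tested genes, deviations of same-numbered libraries correlated at 0.129 between WT and ADPKD. The value was -0.008 between WT and ADPKD+MMPP and 0.014 between ADPKD and ADPKD+MMPP. The carriers were higher in the first library for 10 of 10 genes in both WT and ADPKD. With 2 libraries per group, these values cannot show whether the replicate numbers pair the samples. With the replicate block, 3 carriers were called higher in ADPKD against WT, with *Slc6a19* added (0.85), and 7 in ADPKD+MMPP against ADPKD, with *Slc34a1* added (1.89). The block changed no other call.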
